A study of Homo sapiens with 12 samples.

Results

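How the response to a gamma-secretase inhibitor differed between 48 h and 12 h was measured in CUTLL1. This established human cell line was derived from a T-cell lymphoblastic malignancy and carries a rearranged NOTCH1 gene. The groups were cells given 1 µM Compound E (GSI) and harvested at 48 h, cells given 1 µM Compound E and harvested at 12 h, cells given the solvent DMSO and harvested at 48 h, and cells given DMSO and harvested at 12 h, with 3 poly-A RNA libraries in each. All 12 of the 12 libraries entered, and 19281 of 62069 gene identifiers passed a filter of a deposited value of at least 10 in 3 libraries. For each gene, the log2 change from 12 h to 48 h in DMSO was subtracted from the same change in GSI, and this number is called the difference below. A negative difference means that the transcript stood lower relative to DMSO at 48 h than at 12 h, and a positive one that it stood higher. Levels are the deposited values, which are read counts divided by the library's size factor, so levels of different genes are not corrected for gene length. The line is a single cell line in culture, and the labels do not say whether replicates were separate cultures.

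Gamma-secretase is the protease that cuts the NOTCH receptor within the membrane and frees its intracellular part, which enters the nucleus and switches on target genes with the DNA-binding protein RBPJ. T-cell leukaemias with activated NOTCH1 commonly depend on this signal for growth, for MYC expression and for the metabolism that goes with it. An inhibitor can act early on direct targets and later on the metabolism, stress state and differentiation of the cells.

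Recovered depth was between 73939612 and 160702764 reads per library. T-lineage markers summed to between 395000 and 419700 in GSI 48 h libraries, 394400 and 405300 in GSI 12 h libraries, 369100 and 445500 in DMSO 48 h libraries and 388800 and 462500 in DMSO 12 h libraries, with 9 of 11 markers passing the filter. TRBC1, 1 of the 2 T-cell receptor beta constant genes, was near 0. B-lineage markers summed to at most 3089, most of it CD79A, with MS4A1 and CD22 at 0 in each library. Summed myeloid, erythroid, and fibroblast and epithelial markers stayed at or below 544, 66.5 and 91.9, with FCGR3A, ELANE and EPCAM at 0. In bulk RNA, fewer cells of a type and less RNA per cell cannot be told apart.

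The NOTCH1 target genes bear on the labels and are given first. NRARP, a feedback inhibitor of NOTCH signalling and one of its most direct targets, had values of 1995, 1776 and 1333 in the libraries labelled GSI 48 h, 16830, 25380 and 23570 in those labelled GSI 12 h, 3186, 3564 and 2340 in those labelled DMSO 48 h, and 36770, 49350 and 40940 in those labelled DMSO 12 h. It therefore differed more between the time labels than between the treatment labels, and the groups did not overlap. DTX1, another direct target, had 7426, 8123 and 9186 in libraries labelled GSI 48 h, 48200, 70590 and 64300 in GSI 12 h, 11490, 12790 and 10520 in DMSO 48 h and 76830, 94660 and 82970 in DMSO 12 h. For 13 of the 16 NOTCH1 target genes the differences between time labels in both treatments exceeded the differences between treatments at both times. GSI 12 h and DMSO 48 h enter the difference with the same sign, so each gene's difference would keep its size and direction if these 2 labels were exchanged. The replicate block as fitted would then join GSI and DMSO libraries of the same time and number, and its count of 1177 genes would be unchanged. A block within each treatment would then be the block placed here within each time label, and with that block the fit called 2 genes. Whether the labels stand as given cannot be told from these values, and each change given below as a change over time or as an effect of GSI holds for the libraries as labelled.

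A difference was called for 1177 genes, or 6.1% of those tested (limma with a replicate block within each treatment, Benjamini-Hochberg adjusted p under 0.05), and 4327 had an unadjusted p under 0.05. Of the 1177, 795 were negative, or 4.12%, and 382 positive, or 1.98%. At least 2-fold differences were found for 193 of the negative and 37 of the positive genes. The median absolute difference of the called genes was 0.52 on the log2 scale, and the median difference over all genes tested was 0.0029. The calls rest on pairing libraries of the same treatment and replicate number: without the block limma called 0 genes, with 875 at an unadjusted p under 0.05, and with 1 block per number shared by both treatments it called 40. With the block kept, edgeR on recovered reads called 1206 genes and DESeq2 1321, of which 1124 and 1023 were among the 1177. Leaving out 1 treatment and number, both its 48 h and its 12 h library, gave 752, 1452 and 1445 genes without GSI number 1, 2 and 3, and 543, 389 and 355 without DMSO number 1, 2 and 3.

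**Figure D1:**
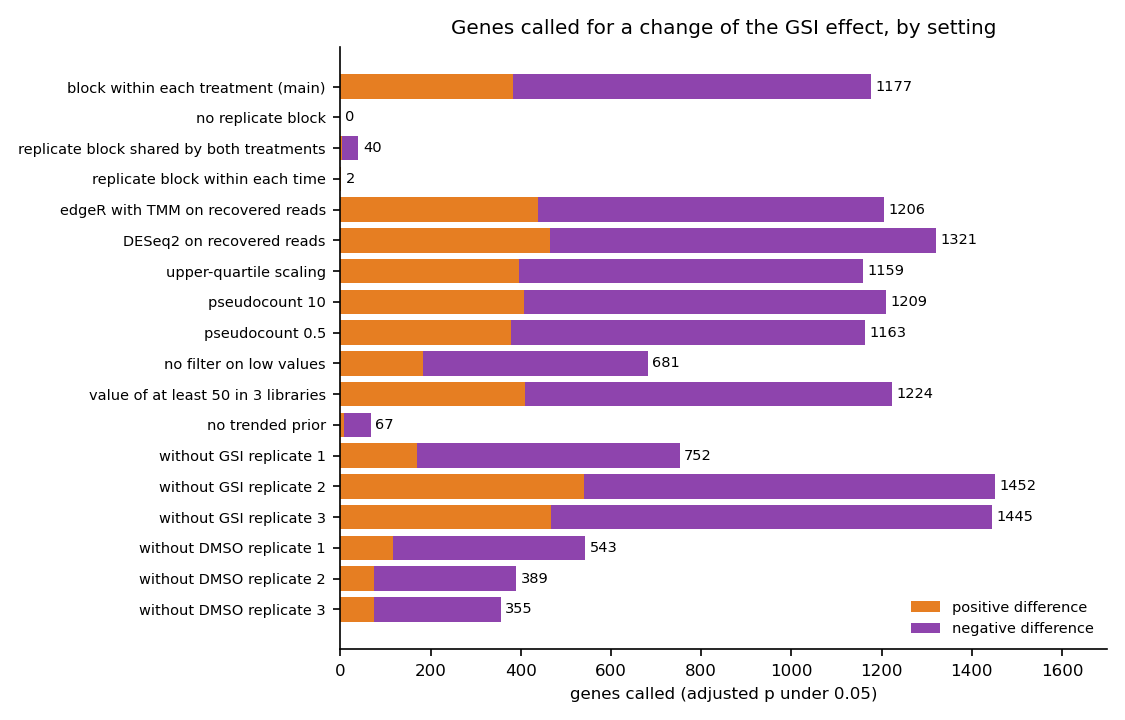
Number of genes called for the difference (horizontal axis) under each way of fitting the data (1 bar each), split into positive (orange) and negative (purple) differences. The count is 1177 with the block within each treatment, 0 without a block, 67 without a trended prior and 355 to 1452 when 1 numbered pair of libraries is left out.

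The 2 parts of the difference are the changes over time in each treatment. In GSI libraries 5544 genes, or 28.8%, changed between 12 h and 48 h, 2435 of them upward and 3109 downward. In DMSO libraries 5622 genes, or 29.2%, changed, 2686 upward and 2936 downward. Another scaling, by the upper quartile, turned these splits to 3079 upward and 2547 downward in GSI and to 3298 upward and 2460 downward in DMSO, so no balance of rises and falls is read from them, while the difference itself moved little, to 396 positive and 763 negative genes. Among the 795 negative genes, 313 fell in GSI and did not pass in DMSO, 248 rose in DMSO and did not pass in GSI, 129 fell in GSI and rose in DMSO, 51 fell in both, 40 rose in both and 14 passed in neither. In this order the first 5 shares were 39.4%, 31.2%, 16.2%, 6.42% and 5.03%. Over all genes tested they were 6.6%, 6.71%, 0.669%, 8.86% and 6.56%. Among the 382 positive genes, 148 rose in GSI and did not pass in DMSO, 116 fell in DMSO and did not pass in GSI, 33 rose in GSI and fell in DMSO, 42 rose in both, 41 fell in both and 2 passed in neither. The first 5 shares were 38.7%, 30.4%, 8.64%, 11% and 10.7%. Over all genes tested they were 5.9%, 6.2%, 0.171%, 6.56% and 8.86%. Both splits are largely set by selection, since the genes were called on the difference of these same changes. The 3 GSI time changes did not overlap the 3 DMSO time changes for 5479 genes, or 28.4% of those tested. The 1177 called genes are among them, and since the call uses the same values nothing is read from this.

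**Figure D2:**
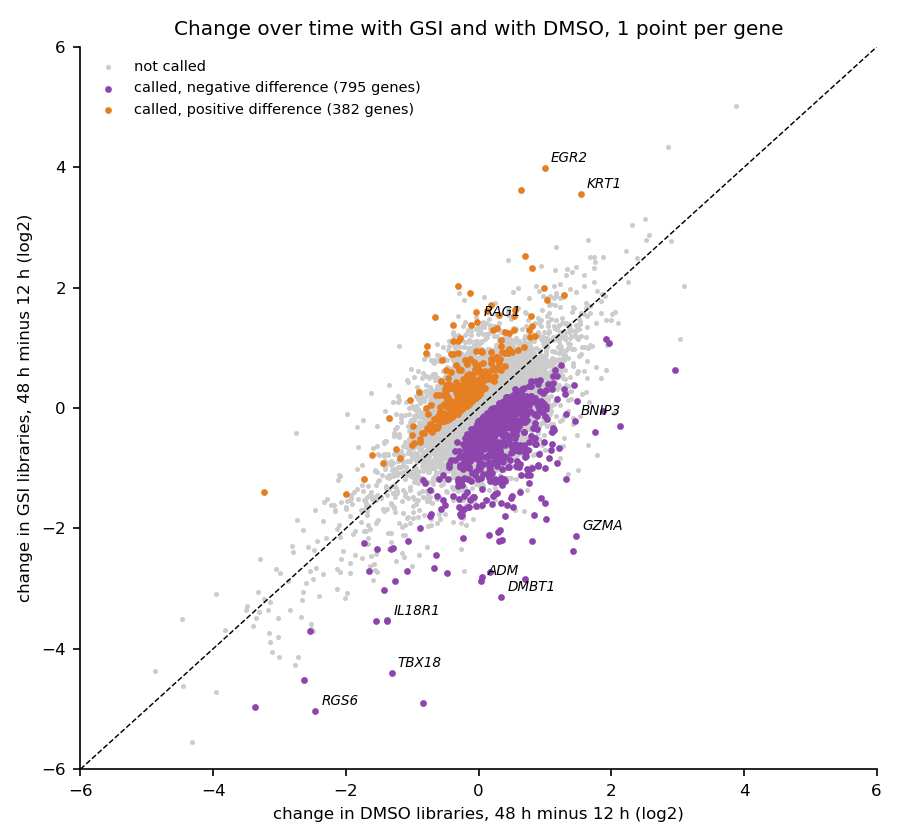
Mean log2 change from 12 h to 48 h in GSI libraries (vertical axis) against that in DMSO libraries (horizontal axis), with 1 point per gene tested and equal changes on the dashed line. Called genes lie off the line, 795 below it (purple) and 382 above it (orange).

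The group means show how the GSI effect itself moved. Of the 795 negative genes, 202 were within 1.5-fold of DMSO at 48 h and at least 1.5-fold higher in GSI at 12 h, 78 were higher at both times, and 26 were lower at 48 h but higher at 12 h. A further 132 were lower in GSI at 48 h and within 1.5-fold at 12 h, 14 were lower at both times, and 343 stayed within 1.5-fold at both. Of the 382 positive genes, 97 were within 1.5-fold at 48 h and lower in GSI at 12 h, 45 were higher at 48 h and within 1.5-fold at 12 h, 20 were lower at both times, 7 higher at both, 5 higher at 48 h but lower at 12 h, and 208 within 1.5-fold at both. The negative genes thus include both transcripts whose excess in GSI was smaller at 48 h and transcripts whose deficit was larger. These directions, and those of the positive genes, are built in, since the same values selected the genes by the sign of the difference. Within 1.5-fold at 48 h and higher at 12 h were 25.4% of the negative genes, beside 6.19% of all genes tested. Lower at 48 h and within 1.5-fold at 12 h were 16.6%, beside 2.84%. Higher at both times were 9.81%, near the 7.96% of all genes tested. Of the positive genes, 25.4% were within 1.5-fold at 48 h and lower at 12 h, beside 4.9% of all genes tested. Higher at 48 h and within 1.5-fold at 12 h were 11.8%, beside 3.56%. Lower at both times were 5.24%, beside 3.71%, and higher at both 1.83%, beside 7.96%. Within 1.5-fold at both times were 43.1% of negative and 54.5% of positive genes, beside 70.5%.

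The largest negative difference among genes whose highest group averaged 100 or more was that of GZMA (ENSG00000145649), which encodes granzyme A, a serine protease of cytotoxic lymphocyte granules. Its values were 5.09, 7.42 and 6.65 in GSI 48 h libraries, 23.3, 49.4 and 25.5 in GSI 12 h libraries, 232, 103 and 130 in DMSO 48 h libraries and 78.7, 49.95 and 36.2 in DMSO 12 h libraries. GSI 48 h libraries were the lowest and DMSO 48 h libraries the highest, without overlap with the rest. GZMA fell by 2.12 on the log2 scale in GSI and rose by 1.46 in DMSO, a difference of -3.59 ± 0.32 (SE, limma adjusted p = 0.000256).

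DMBT1 (ENSG00000187908), a secreted scavenger-receptor glycoprotein of mucosal surfaces, had 129, 111 and 201 in GSI 48 h, 958, 887 and 2343 in GSI 12 h, 837, 2558 and 833 in DMSO 48 h and 728, 1699 and 709 in DMSO 12 h. GSI 48 h stood apart below the other 3 groups, which overlapped one another. Its difference was -3.48 ± 0.17 (SE, limma adjusted p = 1.86e-06). TBX18 (ENSG00000112837), a T-box transcription factor of mesenchymal and heart development, had 19.1, 23.0 and 30.6 in GSI 48 h, 399, 454 and 805 in GSI 12 h, 900, 544 and 357 in DMSO 48 h and 1797, 1523 and 977 in DMSO 12 h. It fell by 4.41 in GSI and fell by 1.31 in DMSO, so that the mean GSI effect was -4.50 at 48 h and -1.40 at 12 h. ENPP1 (ENSG00000197594), a membrane enzyme that makes pyrophosphate from ATP, was the most precisely measured of the large differences, at -2.27 ± 0.07 (SE, limma adjusted p = 4.9e-08). It had 757, 993 and 730 in GSI 48 h, 4741, 7257 and 4833 in GSI 12 h, 7497, 9881 and 3709 in DMSO 48 h and 10500, 13700 and 5162 in DMSO 12 h. For TBX18 and ENPP1, GSI 48 h again lay below the other groups without overlap.

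RGS6, RGS16 and RGS1 encode regulators that speed the shut-off of heterotrimeric G proteins, RGS1 being a lymphocyte regulator of chemokine responses. RGS6 (ENSG00000182732) had 11.5, 2.97 and 9.31 in GSI 48 h, 293, 211 and 292 in GSI 12 h, 65.1, 52.0 and 31.4 in DMSO 48 h and 283, 346 and 192 in DMSO 12 h. It fell by 5.04 in GSI and fell by 2.46 in DMSO, and the groups GSI 12 h and DMSO 12 h overlapped. RGS16 (ENSG00000143333) had 125, 120 and 246 in GSI 48 h, 360, 416 and 1705 in GSI 12 h, 583, 548 and 358 in DMSO 48 h and 456, 489 and 260 in DMSO 12 h. RGS1 (ENSG00000090104) had 270, 297 and 286 in GSI 48 h, 1245, 786 and 1882 in GSI 12 h, 1188, 1266 and 811 in DMSO 48 h and 1186, 1052 and 713 in DMSO 12 h. In GSI, RGS16 fell by 2.03 and RGS1 fell by 2.11, while their DMSO changes of 0.33 and 0.15 did not pass. The differences were -2.58 ± 0.31 for RGS6, -2.36 ± 0.26 for RGS16 and -2.26 ± 0.25 for RGS1 (SE, limma adjusted p between 0.000704 and 0.000962).

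Both subunits of the interleukin-18 receptor were called. IL18R1 (ENSG00000115604), the ligand-binding subunit, had 12.7, 16.3 and 16.0 in GSI 48 h, 168, 199 and 187 in GSI 12 h, 63.5, 45.5 and 46.0 in DMSO 48 h and 139, 168 and 104 in DMSO 12 h. It fell by 3.54 in GSI and fell by 1.38 in DMSO, a difference of -2.16 ± 0.25 (SE, limma adjusted p = 0.00076). IL18RAP (ENSG00000115607), the signalling subunit, was below the level set for named genes and was chosen after its values were seen, since its difference was the lowest of all. It averaged 0.672 ± 0.639 in GSI 48 h, 47.3 ± 12.3 in GSI 12 h, 29.4 ± 24.0 in DMSO 48 h and 45.2 ± 20.0 in DMSO 12 h (SD, n = 3 each). The difference was -4.07 ± 0.53 (SE, limma adjusted p = 0.00163), and its size depends on the pseudocount because the GSI 48 h values are near 0. EPAS1 (ENSG00000116016), the hypoxia-inducible factor HIF-2alpha, had 411, 586 and 462 in GSI 48 h, 1135, 2798 and 989 in GSI 12 h, 2170, 3530 and 1661 in DMSO 48 h and 1818, 2776 and 1029 in DMSO 12 h. It fell by 1.60 in GSI, and GSI 48 h lay below the other groups, with a difference of -2.04 ± 0.23 (SE, limma adjusted p = 0.00076).

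Some of the named genes rose with time in DMSO. LSP1 (ENSG00000130592), an actin-binding protein of leukocytes, had 300, 21.5 and 108 in GSI 48 h, 260, 40.5 and 125 in GSI 12 h, 26.2, 12.3 and 13.5 in DMSO 48 h and 10.6, 0 and 4.42 in DMSO 12 h. Its means were higher in GSI at both times, with overlap at 48 h, and of its 2 changes over time the DMSO change, a rise of 2.13, passed the test. Its difference of -2.42 ± 0.59 (SE, limma adjusted p = 0.0360) was not called without GSI number 1 (-2.67), GSI number 2 (-2.13), DMSO number 2 (-1.62) or DMSO number 3 (-2.78). Over 17 settings the difference of LSP1 ran from -2.87 to -1.12 and was called in 6. Its size depends on the pseudocount because the DMSO 12 h values are low. MYO18B (ENSG00000133454), an unconventional myosin of muscle, had 134, 34.9 and 66.5 in GSI 48 h, 174, 54.4 and 222 in GSI 12 h, 59.5, 44.2 and 38.2 in DMSO 48 h and 34.5, 17.0 and 13.3 in DMSO 12 h. It fell by 0.91 in GSI and rose by 1.18 in DMSO. Its difference was -2.09 ± 0.35 (SE, limma adjusted p = 0.00643).

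Positive differences were led by EGR2 (ENSG00000122877), a zinc-finger transcription factor induced by antigen receptor signalling. It had 113, 77.9 and 142 in GSI 48 h, 12.6, 1.27 and 9.40 in GSI 12 h, 23.0, 11.0 and 12.4 in DMSO 48 h and 12.4, 6.99 and 3.54 in DMSO 12 h. GSI 48 h lay above each of the other libraries. EGR2 rose by 3.99 in GSI, its DMSO change of 1.00 did not pass, and the difference was 2.99 ± 0.52 (SE, limma adjusted p = 0.00831). KRT1 (ENSG00000167768), a type II keratin of differentiated epidermis, had 2390, 1551 and 1886 in GSI 48 h, 192, 86.0 and 253 in GSI 12 h, 453, 954 and 284 in DMSO 48 h and 204, 192 and 126 in DMSO 12 h. It rose in both treatments, by 3.56 in GSI and by 1.54 in DMSO. SOX5 (ENSG00000134532), an HMG-box transcription factor, had 1358, 1653 and 1825 in GSI 48 h, 305, 299 and 352 in GSI 12 h, 172, 310 and 478 in DMSO 48 h and 129, 116 and 317 in DMSO 12 h. Again GSI 48 h stood above the rest, while the other 3 groups overlapped. The differences were 2.02 ± 0.33 for KRT1 (SE, limma adjusted p = 0.00618) and 1.52 ± 0.22 for SOX5 (SE, limma adjusted p = 0.00272).

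**Figure D3:**
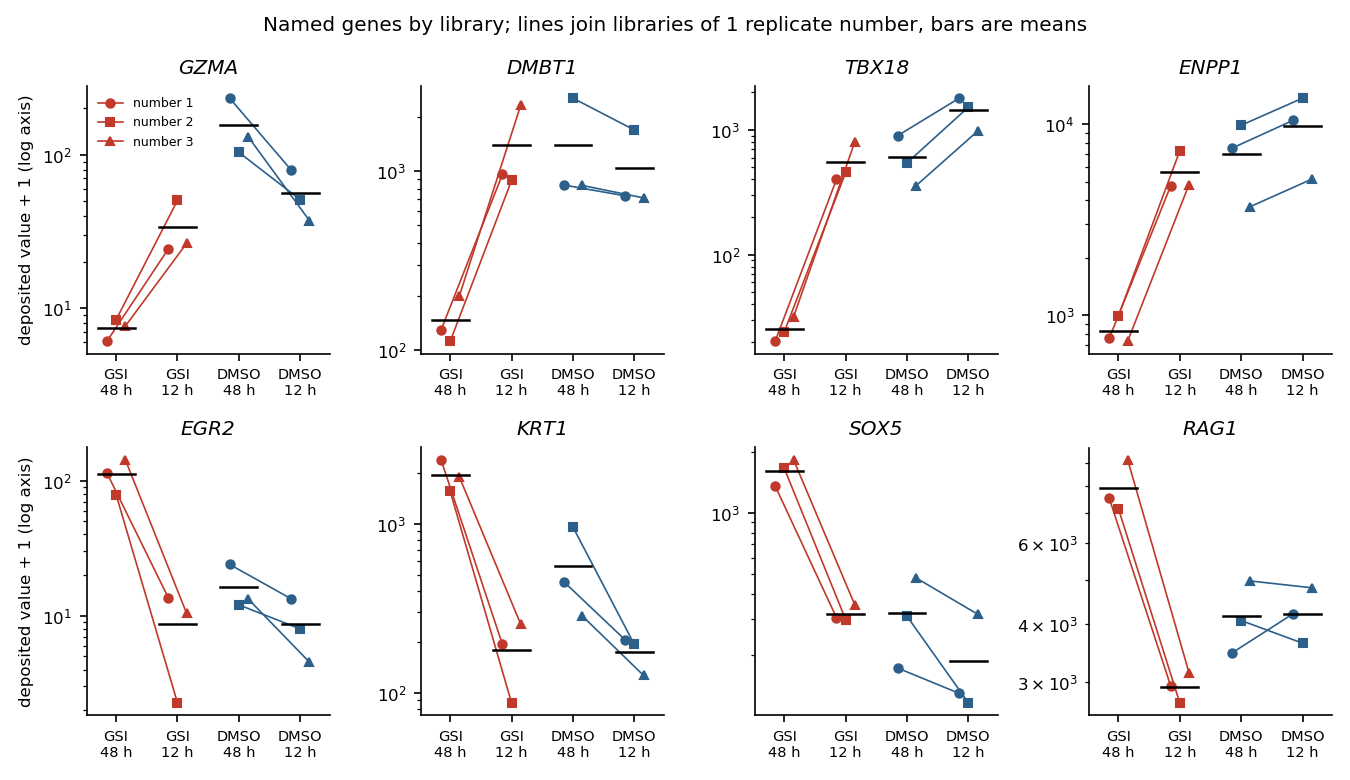
Deposited value + 1 (log axis) of 8 named genes in each library, by group in the order GSI 48 h, GSI 12 h, DMSO 48 h and DMSO 12 h. Points are libraries, bars are group means and lines join libraries of the same treatment and number. GZMA, DMBT1, TBX18 and ENPP1 are lowest at GSI 48 h, and EGR2, KRT1, SOX5 and RAG1 are highest there.

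Smaller positive differences included KCNA3 (ENSG00000177272), the voltage-gated potassium channel Kv1.3 of T cells. It had 351, 185 and 287 in GSI 48 h, 99.1, 81.0 and 92.7 in GSI 12 h, 125, 144 and 92.0 in DMSO 48 h and 98.2, 126 and 69.8 in DMSO 12 h, with GSI 48 h above the rest. It rose by 1.54 in GSI, a difference of 1.23 ± 0.19 (SE, limma adjusted p = 0.00481). PKIB (ENSG00000135549), an inhibitor of protein kinase A, rose by 1.63 in GSI and by 0.55 in DMSO, and the giant scaffold protein gene AHNAK (ENSG00000124942) rose by 2.002 and by 0.98. PKIB had 1763, 2577 and 3348 in GSI 48 h, 586, 853 and 1024 in GSI 12 h, 810, 1835 and 932 in DMSO 48 h and 579, 1121 and 680 in DMSO 12 h, and its groups GSI 48 h and DMSO 48 h overlapped in level. Among 3 genes of less certain standing, MCF2 (1.29), a guanine nucleotide exchange factor, was not called without any 1 of the DMSO numbers, GUCY1A1 (1.18), a guanylate cyclase subunit, not without DMSO number 1 or 3, and TXK (1.16), a Tec-family kinase of T cells, not without DMSO number 3. KIAA1671 (ENSG00000197077) rose by 0.72 in GSI and fell by 0.34 in DMSO. FAM238B, annotated as a pseudogene, had a difference of 1.08, and its reads may be shared with related copies.

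Of 2984 long non-coding RNAs tested 79 were called, 27 positive and 52 negative, a share of 2.65% where 6.1% of all genes were called. The shares were not compared at matched levels, so nothing about long non-coding RNAs as a class is read from this. The largest negative differences among those with a mean of at least 50 were CLEC12A-AS1, LINC01679 and LINC02812. LINC01679 (ENSG00000237989) had 293, 110 and 136 in GSI 48 h, 527, 247 and 339 in GSI 12 h, 98.4, 107 and 53.9 in DMSO 48 h and 63.7, 55.0 and 30.9 in DMSO 12 h. It was higher in GSI at both times and fell by 1.11 in GSI while it rose by 0.78 in DMSO, a difference of -1.89 ± 0.19 (SE, limma adjusted p = 0.000443). CLEC12A-AS1 (-2.43) and LINC02812 (-1.81) were not called without DMSO number 1 or DMSO number 2. DBH-AS1 (ENSG00000225756) led the positive ones, with 2842, 1227 and 1565 in GSI 48 h, 1450, 1053 and 1040 in GSI 12 h, 1139, 956 and 696 in DMSO 48 h and 1428, 1410 and 906 in DMSO 12 h. Its difference was 1.02 ± 0.16 (SE, limma adjusted p = 0.00404), and the groups overlapped in level although the paired time changes did not. LINC00926 (0.68) was not called without GSI number 1, DMSO number 2 or DMSO number 3, and LINC01963 (0.65) not without GSI number 1 or any 1 of the DMSO numbers. Whether counting used strand is not given in the sources used here, so reads of the antisense genes cannot be told from those of their partners.

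Around the threshold, PPP1R10 (difference 0.26, limma adjusted p = 0.0499964) and TCF19 (-0.23, limma adjusted p = 0.0498709) lay just inside. PLEKHH2 (-1.06, limma adjusted p = 0.0501781) lay just outside.

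Genes induced by hypoxia were the list with the most called members. Hypoxia-inducible factors are stabilised when prolyl hydroxylases lack oxygen, bind short DNA elements and raise glucose uptake, glycolysis, mitophagy and vessel growth factors. Of 35 list genes tested, 18 were called, all negative, where 4.12% of all genes were, and the median difference of the 35 was -0.65 against 0.0029 over all genes. The median GSI effect of the list was 1.33 at 48 h and 1.98 at 12 h, so the list stood higher in GSI at both times. The count was 17, 24 and 17 without GSI number 1, 2 and 3, and 12, 10 and 9 without DMSO number 1, 2 and 3. Without a block it was 0, as for each of the 38 lists. The shares of members called that follow are given beside those of all genes tested as a description.

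ADM (ENSG00000148926), the vasodilator peptide adrenomedullin, had 920, 116 and 214 in GSI 48 h, 3577, 925 and 2775 in GSI 12 h, 33.3, 9.74 and 29.2 in DMSO 48 h and 50.4, 12.99 and 13.3 in DMSO 12 h. It was higher in each GSI library than in each DMSO library, fell by 2.88 in GSI, and had a difference of -2.92 ± 0.46 (SE, limma adjusted p = 0.00481). BNIP3, a mitochondrial receptor for mitophagy, had 10870, 2692 and 6655 in GSI 48 h, 11540, 2317 and 11410 in GSI 12 h, 1071, 937 and 1499 in DMSO 48 h and 405, 384 and 473 in DMSO 12 h. BNIP3 rose by 1.45 in DMSO, while its GSI change of -0.22 did not pass, and the difference was -1.66 ± 0.20 (SE, limma adjusted p = 0.000978). The promoters of these 2 genes are shown because their RNA moved in different parts of the contrast, ADM through GSI and BNIP3 through DMSO. They run from 250 bases before to 50 after the gene start (RefSeq, GRCh38.p14), 5′ to 3′ on the gene's strand, with matches to the HIF core ACGTG or GCGTG, or its reverse complement CACGT or CACGC, in capitals.
ADM, chr11:10304823-10305122 (+ strand): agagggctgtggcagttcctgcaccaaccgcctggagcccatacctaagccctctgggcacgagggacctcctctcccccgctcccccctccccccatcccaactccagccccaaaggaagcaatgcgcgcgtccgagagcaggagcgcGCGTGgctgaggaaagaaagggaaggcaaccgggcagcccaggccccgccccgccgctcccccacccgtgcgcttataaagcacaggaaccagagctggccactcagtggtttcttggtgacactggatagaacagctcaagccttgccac
BNIP3, chr10:131981874-131982173 (- strand): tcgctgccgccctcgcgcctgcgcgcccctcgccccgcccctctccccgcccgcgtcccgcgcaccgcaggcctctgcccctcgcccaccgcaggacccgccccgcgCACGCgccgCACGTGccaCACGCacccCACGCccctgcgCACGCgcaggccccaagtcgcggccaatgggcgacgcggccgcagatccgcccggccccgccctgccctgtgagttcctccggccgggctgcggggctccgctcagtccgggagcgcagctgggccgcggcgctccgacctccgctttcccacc

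ADM held 1 match and BNIP3 held 6, 2 of which overlap in CACGTG. Of the 18 called list members 15 had a promoter in the table, and 12 of these, or 80.0%, held a match, against 61.1% of the promoters of genes tested and 48.4% of all 27305 promoters of that length. Among all called genes the shares were 57.7% of negative and 61.5% of positive ones, near that of the genes tested. For hypoxia list members that were not called the share was not computed, so nothing about the difference is read from the 80.0%. A match is a description of these letters and not a binding site.

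SLC2A3, the glucose transporter GLUT3, had 16500, 7078 and 18840 in GSI 48 h, 21480, 7967 and 21730 in GSI 12 h, 6466, 5459 and 6148 in DMSO 48 h and 4029, 2887 and 3171 in DMSO 12 h. SLC2A3 rose by 0.85 in DMSO, and the difference was -1.10 ± 0.08 (SE, limma adjusted p = 7.98e-05). PFKFB4, which makes the activator of phosphofructokinase, had 8074, 1295 and 2250 in GSI 48 h, 14430, 3218 and 9628 in GSI 12 h, 559, 389 and 482 in DMSO 48 h and 460.8, 321.7 and 391.6 in DMSO 12 h. Its difference was -1.70 ± 0.23 (SE, limma adjusted p = 0.00201). For ADM, BNIP3, SLC2A3 and PFKFB4 the libraries numbered 2 were the lowest of the GSI libraries at both times. DDIT4, an inhibitor of mTORC1, had 73080, 29170 and 87010 in GSI 48 h, 96050, 44650 and 114200 in GSI 12 h, 21020, 16270 and 24920 in DMSO 48 h and 17490, 13410 and 16950 in DMSO 12 h, a difference of -0.83 ± 0.09 (SE, limma adjusted p = 0.000621). PDK1, a pyruvate dehydrogenase kinase, had a difference of -0.97, VLDLR, a lipoprotein receptor, -1.01, and the microRNA host MIR210HG -1.30. EGLN3 (ENSG00000129521), a prolyl hydroxylase that is itself a HIF target, had 87.8, 8.91 and 10.6 in GSI 48 h, 467, 105 and 309 in GSI 12 h, 11.9, 9.09 and 2.25 in DMSO 48 h and 26.5, 16.0 and 15.03 in DMSO 12 h. Its difference of -2.13 ± 0.56 (SE, limma adjusted p = 0.0490) was kept in the fit without GSI number 1 and lost in the other 5, at -1.52 to -2.59. The growth factor gene VEGFA (0.31), the histone demethylase gene KDM3A (-0.32) and the adenylate kinase gene AK4 (-0.89) were not called.

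Glycolytic enzymes showed 12 of 22 called, all negative, with a median of -0.33. That is 54.5% of them, beside 4.12% of all genes called negative. SLC2A3 stands in both lists. PKM, the pyruvate kinase of proliferating cells, had 229300, 174200 and 202300 in GSI 48 h, 325300, 269500 and 287900 in GSI 12 h, 214900, 193900 and 274700 in DMSO 48 h and 204500, 207800 and 249500 in DMSO 12 h. GSI 12 h lay above the other groups except for overlap with DMSO 48 h, and the difference was -0.58 ± 0.07 (SE, limma adjusted p = 0.00104). ALDOC, an aldolase, had 9335, 1939 and 5496 in GSI 48 h, 13350, 4095 and 12430 in GSI 12 h, 1768, 1592 and 1922 in DMSO 48 h and 1744, 1466 and 1867 in DMSO 12 h, a difference of -0.98 ± 0.14 (SE, limma adjusted p = 0.00251). The differences of LDHA (-0.42), PGK1 (-0.54), ALDOA (-0.42) and GAPDH (-0.29) also passed. The count was 7 without DMSO number 1 and 4 without DMSO number 3, and between 10 and 13 without any other number.

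Genes of the ATF4 response, which answers amino acid shortage and other stress, had 9 of 23 called, or 39.1%, all negative, with a median of -0.54, beside 4.12% of all genes called negative. Among the 9, DDIT4 and VLDLR stand in the hypoxia list too, so the 2 lists are not separate. SLC7A11, the cystine transporter, had 1488, 2369 and 8575 in GSI 48 h, 3336, 3124 and 21690 in GSI 12 h, 2746, 2098 and 3249 in DMSO 48 h and 2781, 1876 and 3486 in DMSO 12 h. PCK2, a mitochondrial carboxykinase, had 2951, 2606 and 6931 in GSI 48 h, 3396, 3120 and 13130 in GSI 12 h, 1901, 1899 and 2672 in DMSO 48 h and 1434, 1553 and 1987 in DMSO 12 h. In both genes the libraries numbered 3 were far above the other GSI libraries. The differences were -0.98 ± 0.19 for SLC7A11 (SE, limma adjusted p = 0.0133) and -0.84 ± 0.15 for PCK2 (SE, limma adjusted p = 0.0106), and PHGDH (-0.69) and DDIT3 (-0.92) passed as well. The count of called members was 5 without DMSO number 1 and 3 without DMSO number 2 or 3.

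The unfolded protein response, which supports folding in the endoplasmic reticulum, had 7 of 21 called, all negative, with a median of -0.21. The share was 33.3%, against 4.12% of all genes. HSPA5, its main chaperone, had 20020, 28750 and 14880 in GSI 48 h, 23590, 40990 and 20370 in GSI 12 h, 38200, 27780 and 46610 in DMSO 48 h and 35160, 25270 and 40400 in DMSO 12 h. The groups overlapped in level, and the paired changes gave a difference of -0.55 ± 0.07 (SE, limma adjusted p = 0.00164). CRELD2 (-0.61) and HSP90B1 (-0.41), both of the same compartment, passed too. The count was 4 without DMSO number 3. Of 21 heat shock chaperones 1 was called, the co-chaperone BAG3 (-1.0015), and this share of 4.76% is near the 6.1% of all genes.

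Interferon-induced genes had 8 of 35 called, or 22.9%, where 4.12% of all genes were called negative, and each of the 8 was negative. The median of the list was -0.28. These genes are switched on by interferon signalling and restrict viruses. GBP1, an interferon-induced GTPase, had 150, 161 and 124 in GSI 48 h, 344, 599 and 434 in GSI 12 h, 216, 293 and 187 in DMSO 48 h and 202, 300 and 210 in DMSO 12 h. GSI 12 h stood above and GSI 48 h below the DMSO groups, with a difference of -1.59 ± 0.19 (SE, limma adjusted p = 0.000853). GBP2 (ENSG00000162645), of the same family and not on the list, had 216, 125 and 164 in GSI 48 h, 470, 788 and 559 in GSI 12 h, 775, 880 and 338 in DMSO 48 h and 438, 315 and 201 in DMSO 12 h. It fell by 1.84 in GSI and rose by 1.02 in DMSO, a difference of -2.86 ± 0.32 (SE, limma adjusted p = 0.000704). IFIT3, which binds with other IFIT proteins to viral RNA, had 172, 203 and 95.8 in GSI 48 h, 257, 351 and 172 in GSI 12 h, 488, 423 and 247 in DMSO 48 h and 409, 306 and 210 in DMSO 12 h. GSI 48 h lay below each DMSO library and overlapped GSI 12 h, and the difference was -1.05 ± 0.14 (SE, limma adjusted p = 0.00168). OASL (-1.28), IFIT1 (-1.12), ISG20 (-0.59) and IFI35 (-0.58) were called too, while ISG15 (0.19) and IRF1 (0.07) were not. The count was 3 without DMSO number 2 or DMSO number 3.

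The promoters of GBP1 and IFIT3, the called list members of smallest p, are shown in the same way, with matches to the interferon element in capitals. The element was searched as GAAA, any 2 bases and GAAA again, or on the other strand as TTTC, any 2 bases and TTTC.
GBP1, chr1:89065159-89065458 (- strand): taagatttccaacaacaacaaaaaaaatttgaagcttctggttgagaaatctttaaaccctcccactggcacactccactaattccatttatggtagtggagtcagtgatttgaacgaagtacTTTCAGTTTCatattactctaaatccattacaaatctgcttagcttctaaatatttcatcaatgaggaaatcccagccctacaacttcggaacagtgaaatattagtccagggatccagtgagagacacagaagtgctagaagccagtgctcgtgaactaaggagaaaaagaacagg
IFIT3, chr10:89327747-89328046 (+ strand): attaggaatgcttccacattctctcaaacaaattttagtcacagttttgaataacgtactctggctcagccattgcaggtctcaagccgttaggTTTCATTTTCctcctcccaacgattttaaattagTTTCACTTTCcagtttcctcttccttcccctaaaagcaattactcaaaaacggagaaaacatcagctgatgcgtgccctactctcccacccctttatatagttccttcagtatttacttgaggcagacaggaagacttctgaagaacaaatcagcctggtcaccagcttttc

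GBP1 held 1 match and IFIT3 held 2. Of the 8 called list members 7 had a promoter in the table and 5 of these, or 71.4%, held a match, against 2.9% of the promoters of genes tested and 3.65% of all promoters. The share among list members that were not called was not computed, so nothing about the difference is read from the 71.4%. Among all called genes the shares were 4.44% of the negative and 2.96% of the positive ones. The motif of RBPJ, TGGGAA or TTCCCA, was in 18.8% of negative and 18.9% of positive genes' promoters, against 21.9% of those tested.

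**Figure D4:**
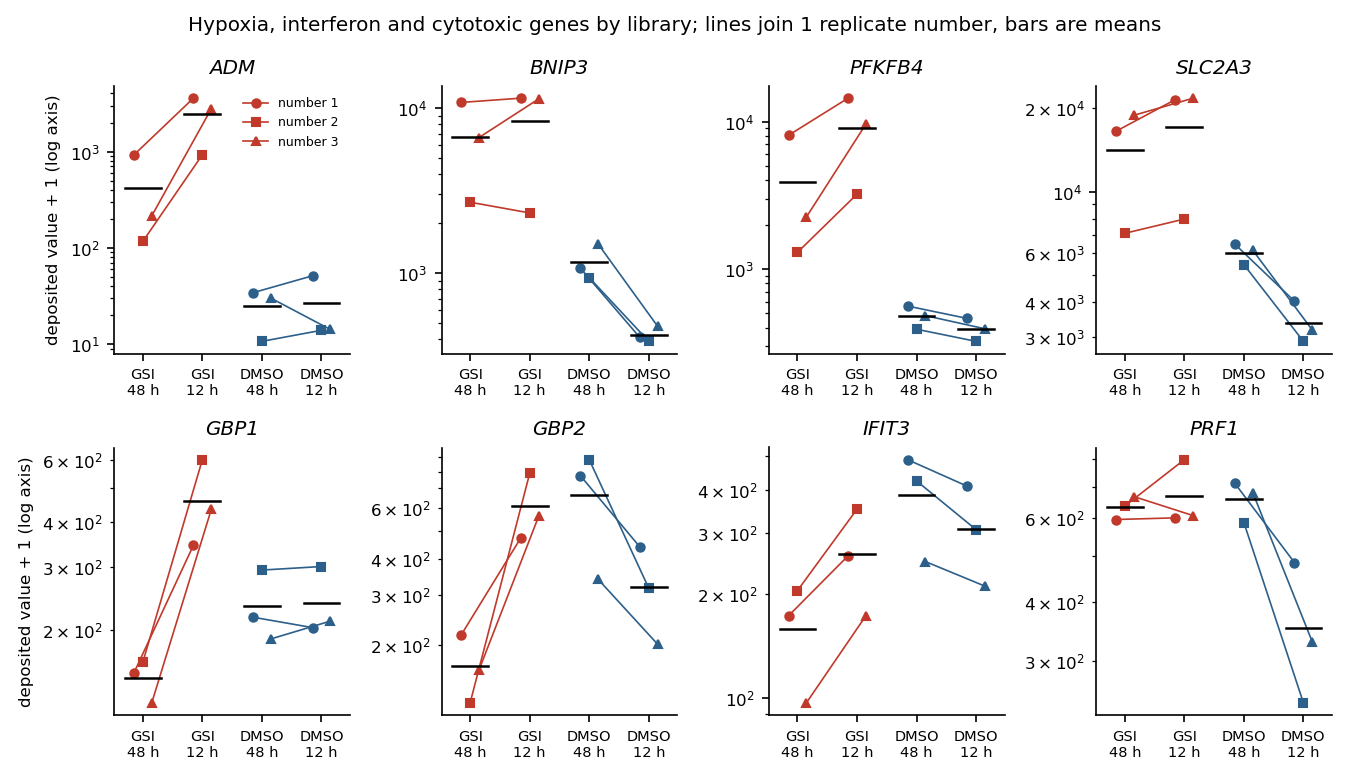
Deposited value + 1 (log axis) of 4 hypoxia genes (ADM, BNIP3, PFKFB4, SLC2A3), 3 interferon-induced genes (GBP1, GBP2, IFIT3) and the cytotoxic gene PRF1 in each library, drawn as in the plot of named genes. The hypoxia genes are high in both GSI groups with number 2 lowest, GBP1 peaks at GSI 12 h, and PRF1 is lowest at DMSO 12 h.

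Cytotoxic genes had 5 of 12 called, all negative, with a median of -0.56, a share of 41.7% beside 4.12% of all genes. Beside GZMA, PRF1, the pore-forming perforin, had 596, 636 and 666 in GSI 48 h, 601, 797 and 607 in GSI 12 h, 710, 587 and 679 in DMSO 48 h and 483, 244 and 328 in DMSO 12 h. DMSO 12 h lay below the other groups, PRF1 rose by 0.96 in DMSO, and the difference was -1.02 ± 0.18 (SE, limma adjusted p = 0.00765). FASLG, the ligand of the death receptor FAS, had 20.4, 32.7 and 16.0 in GSI 48 h, 42.8, 83.5 and 53.7 in GSI 12 h, 69.0, 29.2 and 62.9 in DMSO 48 h and 77.8, 20.98 and 69.8 in DMSO 12 h. Its difference of -1.40 ± 0.29 (SE, limma adjusted p = 0.0189) was lost without DMSO number 2 or DMSO number 3. NKG7 (-0.39) and CST7 (-0.58) passed, and EOMES (-0.55) and KLRB1 (-0.20) did not. The count was 3 without DMSO number 1 and 2 without DMSO number 2 or 3.

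Thymocyte development was the list with the most positive calls, 11 against 4 negative of 35 tested, with a median of 0.11. In all 42.9% of its members were called, beside 6.1% of all genes, of which 1.98% were positive and 4.12% negative. These genes run the rearrangement of antigen receptor genes and the fate choices of cortical thymocytes. RAG1 (ENSG00000166349), 1 of the 2 subunits of the V(D)J recombinase, had 7527, 7141 and 9128 in GSI 48 h, 2943, 2699 and 3142 in GSI 12 h, 3466, 4077 and 4971 in DMSO 48 h and 4221, 3640 and 4804 in DMSO 12 h. GSI 48 h stood above and GSI 12 h below the DMSO groups, and the difference was 1.46 ± 0.10 (SE, limma adjusted p = 6.69e-05). Its partner RAG2 had 4493, 4461 and 3627 in GSI 48 h, 2684, 2661 and 2676 in GSI 12 h, 3352, 3150 and 3845 in DMSO 48 h and 2960, 2617 and 3261 in DMSO 12 h, with a smaller difference of 0.41 ± 0.09 (SE, limma adjusted p = 0.0208). CCR9, a chemokine receptor that guides thymocytes and gut-homing T cells, had 38830, 40290 and 58460 in GSI 48 h, 11820, 15000 and 21230 in GSI 12 h, 16980, 34860 and 23340 in DMSO 48 h and 12370, 15980 and 13430 in DMSO 12 h. It rose by 1.53 in GSI and by 0.79 in DMSO, and its difference of 0.74 ± 0.14 (SE, limma adjusted p = 0.0111) was lost without DMSO number 3.

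CD1E and CD1B, lipid-presenting molecules of cortical thymocytes, fell by 0.49 and fell by 0.44 in DMSO, while their GSI changes of 0.07 and 0.10 did not pass. CD1E had 29650, 26120 and 26440 in GSI 48 h, 27100, 26510 and 24830 in GSI 12 h, 15940, 19450 and 20450 in DMSO 48 h and 24600, 27810 and 25830 in DMSO 12 h, and DMSO 48 h lay below the rest. Its difference was 0.56 ± 0.08 (SE, limma adjusted p = 0.00201), and that of CD1B was 0.54 ± 0.07 (SE, limma adjusted p = 0.00141). The transcription factor genes GATA3 (0.41), TCF7 (0.27), IKZF1 (0.23) and SOX4 (0.30), each active in T-cell development, also passed. The negative ones were ID1 (-1.05) and ID2 (-1.69), inhibitors of E proteins, with ZBTB7B (-0.85) and RUNX3 (-0.44), factors of the CD4 and CD8 lineages. ID1 had 188, 304 and 137 in GSI 48 h, 1001, 2154 and 1026 in GSI 12 h, 308, 247 and 259 in DMSO 48 h and 772, 946 and 845 in DMSO 12 h, and GSI 12 h was above the rest. LEF1 (0.09), CXCR4 (0.11) and TCF3 (0.24) did not pass. The number of list members called in either direction was 15, and 9 without GSI number 1, 5 without DMSO number 1, 9 without DMSO number 2 and 5 without DMSO number 3.

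Immediate early genes, which respond within minutes to receptor signals, were split. EGR2, EGR3 (1.82) and the phosphatase gene DUSP2 (0.66) were positive, and FOSL2 (-1.11), DUSP4 (-1.04), ATF3 (-1.03) and KLF10 (-0.40) negative, of 26 tested, with a median of -0.02. These are 26.9% of the list, beside 6.1% of all genes, and the median lay between -0.11 and 0.09 on leaving out a pair. EGR3, the nearest relative of EGR2, had 62.4, 88.3 and 79.8 in GSI 48 h, 15.6, 15.2 and 8.06 in GSI 12 h, 9.52, 16.9 and 13.5 in DMSO 48 h and 6.19, 7.99 and 8.84 in DMSO 12 h. As with EGR2, GSI 48 h lay above the other libraries, and EGR3 rose by 2.52 in GSI. EGR1 (0.89), FOS (-0.01) and DUSP6 (-0.15), an output of ERK signalling, did not pass. DUSP4, a MAP kinase phosphatase, had 406, 434 and 375 in GSI 48 h, 451, 442 and 347 in GSI 12 h, 760, 907 and 567 in DMSO 48 h and 397, 449 and 264 in DMSO 12 h. It was DMSO 48 h that stood apart, through a rise of 1.02 in DMSO.

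Among NOTCH1 targets 2 were positive and 1 negative of 16, a share of 18.8% beside 6.1% of all genes. The median of 0.07 lay between -0.04 and 0.21 on leaving out a pair, with the other sign in 3 of the 6 fits. NOTCH1, the receptor itself, had 139700, 155800 and 183700 in GSI 48 h, 112600, 122700 and 139900 in GSI 12 h, 201000, 202900 and 186100 in DMSO 48 h and 207400, 198900 and 186900 in DMSO 12 h. It was lower in each GSI library than in each DMSO library, and rose by 0.35 in GSI, a difference of 0.36 ± 0.05 (SE, limma adjusted p = 0.00367). NOTCH3, a related receptor and target, fell by 1.42 in GSI and fell by 1.995 in DMSO, and its difference of 0.57 ± 0.11 (SE, limma adjusted p = 0.0139) was lost without DMSO number 2 or 3. IL7R, the interleukin-7 receptor, had -0.46 ± 0.12 (SE, limma adjusted p = 0.0467) and was called in only 1 of the 6 fits that left out a pair. NRARP (0.13), DTX1 (-0.0056), MYC (0.19), HES4 (-0.17) and HES1 (-0.48) did not pass. The count was 1 without DMSO number 2.

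Receptors of chemokines and cytokines had 9 of 32 called, 8 of them negative, with a median of -0.21. Called members made up 28.1%, beside 6.1% of all genes. IL2RB, the beta chain of the interleukin-2 receptor, had 3094, 3270 and 2991 in GSI 48 h, 3231, 3876 and 3046 in GSI 12 h, 3667, 3393 and 3368 in DMSO 48 h and 2839, 2659 and 2408 in DMSO 12 h, with DMSO 12 h lowest. Its difference was -0.51 ± 0.08 (SE, limma adjusted p = 0.00381). IL10RA (-0.92), IL6ST (-0.65), IFNGR1 (-0.42) and IFNGR2 (-0.55) passed too. The count was 3, 4 and 2 without DMSO number 1, 2 and 3. MHC class I presentation had 5 of 17 called, or 29.4% where 4.12% of all genes were called negative, all of them negative, with a median of -0.13. Among them were CALR (-0.35) and PDIA3 (-0.23), which stand in the unfolded protein response list too. HLA-B (-0.45) and HLA-C (-0.27) were also called, and their reads may be split between near-identical genes. The count was 3 without GSI number 1, 1 without GSI number 2, 2 without DMSO number 1 and 1 without DMSO number 2 or 3.

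Ribosome biogenesis, the nucleolar work that MYC drives, had 5 of 33 called, all positive, with a median of 0.22. This share of 15.2% stands beside 1.98% of all genes called positive. DDX21, a nucleolar helicase, had 17610, 24820 and 20670 in GSI 48 h, 23650, 31680 and 23260 in GSI 12 h, 30380, 34740 and 31770 in DMSO 48 h and 47720, 59530 and 50150 in DMSO 12 h. It fell by 0.32 in GSI and fell by 0.70 in DMSO, and the difference was 0.38 ± 0.07 (SE, limma adjusted p = 0.0120). MYBBP1A (0.44) and NOLC1 (0.39) showed the same order. These calls rest on the libraries kept, since the count was 3 without GSI number 1, 8 without GSI number 2, 1 without DMSO number 1 and 0 without DMSO number 2 or 3.

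In the other 26 lists at most 5 members were called. The largest shares were 25% in the BCL2 family (5 of 20) and 23.5% in the circadian clock (4 of 17). The mitochondrially encoded chain had 23.1% (3 of 13). Each other list had at most 17.6%, beside 6.1% of all genes. Without DMSO number 3 the BCL2, clock and mitochondrial counts were 2, 2 and 0. BNIP3 and BNIP3L of the BCL2 family, and BHLHE40 and RORA of the clock, stand in the hypoxia list too. On leaving out a pair the count went past 5 in 4 of the 26 lists. It rose to 12 of 24 in cholesterol synthesis and 6 in the circadian clock without GSI number 3. Without GSI number 2 it rose to 7 in FOXO and quiescence and 6 in DNA replication and G1/S. TRAF1, a signal adaptor induced by NF-kappaB, had 5476, 1764 and 2482 in GSI 48 h, 4850, 2218 and 2907 in GSI 12 h, 2611, 2048 and 2149 in DMSO 48 h and 1544, 948 and 976 in DMSO 12 h, a difference of -1.13 ± 0.14 (SE, limma adjusted p = 0.000962) with DMSO 12 h lowest. BCL2L11, the pro-apoptotic protein BIM, had 2188, 2345 and 2119 in GSI 48 h, 2303, 2426 and 2380 in GSI 12 h, 1931, 2782 and 1532 in DMSO 48 h and 3159, 4667 and 2696 in DMSO 12 h. DMSO 12 h was highest and overlapped DMSO 48 h, and the difference was 0.66 ± 0.07 (SE, limma adjusted p = 0.000697). KCNAB2 (-1.04), a subunit of Kv channels, and KCNN4 (-0.70), a calcium-activated potassium channel, were negative where KCNA3 was positive, and the call of KCNN4 was lost without DMSO number 3. The thymidine kinase gene TK1 (-0.43), the sterol carrier gene STARD4 (-0.47) and the clock repressor gene NR1D2 (0.47) were called in each of the 6 fits that left out a pair. By limma 0 members were called among 36 cytosolic ribosomal proteins (2 at an unadjusted p under 0.05), 30 proteasome genes (2), 21 histone lysine demethylases (7), 17 core histones (3) and 11 genes of fatty acid synthesis (5). By edgeR 0 were called in each of these lists, and DESeq2 called 1 ribosomal protein, 3 demethylases and 3 genes of fatty acid synthesis.

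**Figure D5:**
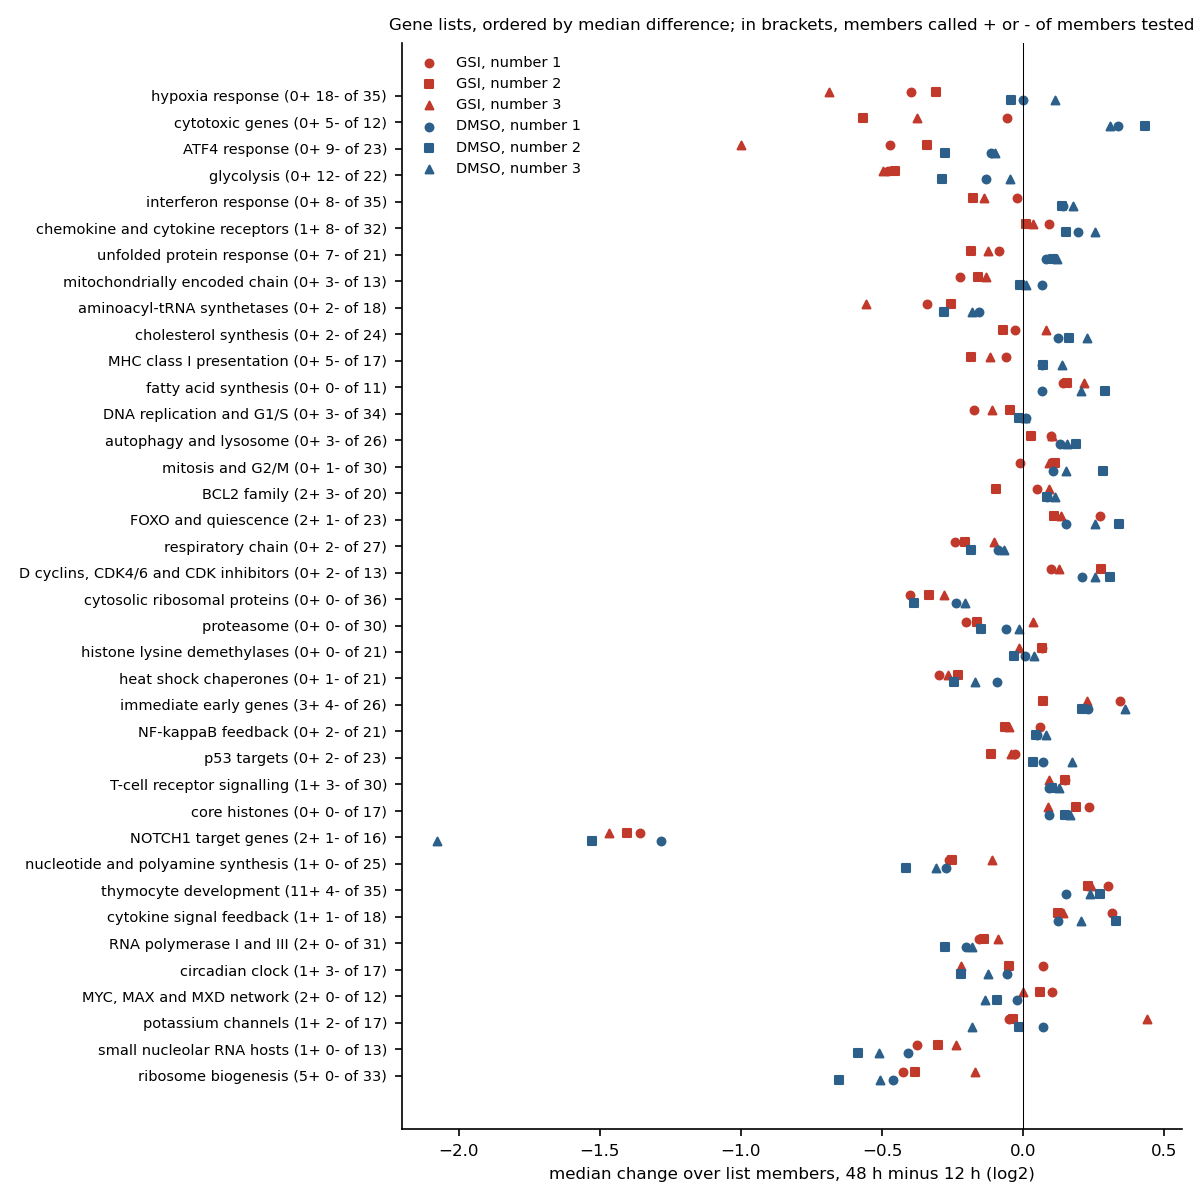
Median log2 change from 12 h to 48 h over the members of each of 38 gene lists (horizontal axis), with 1 point per numbered pair of libraries, GSI in red and DMSO in blue. Brackets give members called positive and negative of members tested. GSI points lie left of DMSO points for the hypoxia, cytotoxic and glycolysis lists, and right of them for ribosome biogenesis, while both treatments lie far left for NOTCH1 targets.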

How the data were processed

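Poly-A RNA was sequenced from 12 libraries of CUTLL1 cells, 3 in each of 4 groups. FastQC 0.10.1, TopHat2 2.0.10, HTSeq 0.6.1, DESeq2 and the build hg19 are named, per the submitters' processing notes. How they were set, the annotation and the use of strand are not stated there or in the labels. What the authors deposited is a normalized signal: each library's reads per Ensembl gene over that library's size factor. Whole reads could be recovered from 100% of the values within a tolerance of 0.01, and totals ran from 73939612 to 160702764 reads.

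Genes reaching a value of 10 in 3 or more libraries were fitted, and log2(value + 1) was fitted with limma 3.58.1 in R 4.3.3 (trended prior, 6 block levels, 4 residual and 7.17 prior degrees of freedom). The log2(value + 1) scale understates changes of low genes. Each SE is the moderated standard error of that fit, and each adjusted p is adjusted over all 19281 genes. P-values measure only the spread between these libraries, which may be technical. edgeR 4.0.16 and DESeq2 1.42.0 were run on recovered reads with the same block. Other alternatives were the block, scaling, pseudocount, filter, prior and the leaving out of each numbered pair of libraries.

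Each block joins the 48 h and 12 h library of the same treatment and number. Deviations from group means correlated over genes at 0.400 to 0.545 between same-numbered GSI libraries and at 0.545 to 0.612 between same-numbered DMSO libraries. Between libraries of other numbers of the same treatment they correlated at -0.38 to -0.0972. Deviations within a group sum to 0, so positive same-number values push the others negative, and nothing is read from that sign. Between treatments, same-numbered libraries correlated at 0.103 to 0.157 at 48 h and 0.0676 to 0.272 at 12 h. Without the block limma called 0 genes.

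The contrast, the members of the 38 gene lists and the rule for named genes were chosen with earlier results of these data known. The rule took the 14 called genes of largest difference in each direction with a symbol, a mean of at least 100 in the highest group and time changes that did not overlap between treatments, per direction the 3 long non-coding RNAs of largest difference averaging 50 or more in a group, up to 3 called and 2 uncalled members per list, and the genes next to the threshold; not every gene taken by it is reported here. Symbols matched 39007 of 62069 identifiers. Biotypes came from GENCODE 29. Promoters came from RefSeq on GRCh38.p14, matched by symbol, and no coordinates were read from the deposited files. The fit was tested on simulated reads, but the outcome is not given here and no result rests on it.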

Additional observations from a re-analysis of the deposited data

Results flagged for a closer look

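For 1177 genes a test of the difference itself called the effect of GSI at 48 h different from that at 12 h (limma adjusted p under 0.05). The count was 40 with a block shared by both treatments, 2 with a block within each time and 67 with no trended prior. The named genes reported here are listed with that difference, 48 h effect minus 12 h effect, on the log2 scale, each from the limma fit that pairs libraries by treatment and number (without this block it called 0 genes).

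Negative differences were those of GZMA (-3.59), DMBT1 (-3.48), TBX18 (-3.10), ADM (-2.92), GBP2 (-2.86), RGS6 (-2.58), LSP1 (-2.42), RGS16 (-2.36), ENPP1 (-2.27), RGS1 (-2.26), IL18R1 (-2.16), EGLN3 (-2.13), MYO18B (-2.09) and EPAS1 (-2.04). Positive differences were those of EGR2 (2.99), KRT1 (2.02), SOX5 (1.52), RAG1 (1.46), MCF2 (1.29), KCNA3 (1.23), GUCY1A1 (1.18), TXK (1.16), PKIB (1.08), FAM238B (1.08), KIAA1671 (1.07), AHNAK (1.02) and DBH-AS1 (1.02). Among other long non-coding RNAs the differences were CLEC12A-AS1 (-2.43), LINC01679 (-1.89), LINC02812 (-1.81), LINC00926 (0.68) and LINC01963 (0.65).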

How the results depend on the processing

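The count of 1177 genes was 0 with no replicate block, 40 with a block shared by both treatments, 2 with a block within each time, 67 with no trended prior, 681 with no filter on low values and 355 to 1452 when 1 numbered pair was left out. It stayed between 1159 and 1321 with edgeR, DESeq2, upper-quartile scaling, other pseudocounts and a filter at 50. The 5544 genes changed over time in GSI became 768 with no block, 1941 with a shared block, 3587 with no trended prior and 3497 to 5699 on leaving out a pair, lowest without GSI number 1. The 5622 changed in DMSO became 874, 2368 and, on leaving out a pair, 2972 to 6880, with 2972 without DMSO number 2 and 3540 without DMSO number 3. A block within each time gives no value for these 2 counts, since it absorbs the time label.

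Each of the 1177 genes kept its sign in every setting in which it was tested. On leaving out a pair the sign could not turn, since the time changes of each called gene did not overlap between treatments. The block and the trended prior alter the error and not the estimate, whose median over all genes stayed at 0.0029. Nothing is read from the kept sign in these settings. The 33 genes taken by the naming rule kept their sign too. Of these, 33 lost their call with no block, 26 with a shared block, 32 with a block within each time and 24 with no trended prior. The fit called 8 of them fewer without DMSO number 2 or 3. List medians moved by more than the spread between pairs for at most 6 of 38 lists in any fit that left out a pair, and for 0 in the other settings. They changed sign for 2 lists with edgeR, 1 with the filter at 50 and 1 to 4 on leaving out a pair, among them NOTCH1 targets (-0.02 and -0.03 without GSI number 1 and 3, -0.04 without DMSO number 3) and immediate early genes. The precision of genes near the filter value of 10 is limited by depth. The cause of these changes was not tested.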
